A study of Mus musculus with 16 samples.

Results

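The Cyp4a genes of the mouse encode cytochrome P450 enzymes of the endoplasmic reticulum that place a hydroxyl group on the last (omega) carbon of fatty acids. Their members were taken here as the 6 rows of the short-read RNA-Seq count table whose identifiers map to Cyp4a10, Cyp4a14, Cyp4a31, Cyp4a32, Cyp4a12a and Cyp4a12b, out of 55385 genes in the table. The 6 genes were chosen because of their change between fasting and fed conditions in these same libraries, so their values are given below as a description, with no p-value for any of them. The table holds 16 libraries from 8 tissues (liver, kidney, muscle, white adipose, brown adipose, heart, spleen and lung) of male C57BL/6 mice under 2 treatments. Fed mice had free access to chow and water, fasting mice were deprived of food for 24 h, and no genotype or drug distinguished the groups. Each library was made from the tissue of 3 mice of a group, obtained at 12 weeks of age and pooled in equal parts, so every tissue and treatment has 1 library, the spread between mice is not visible, and every comparison of treatments within a tissue is one between 2 libraries.

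Omega-hydroxylation is the first step of a side route of fatty acid oxidation. An omega-hydroxy fatty acid is oxidised to a dicarboxylic acid, whose ends are then shortened in the peroxisome. The same enzymes also act on arachidonic acid, which gives a product that acts on blood vessels and on salt transport in the kidney. Cyp4a10 and Cyp4a14 are textbook target genes of PPARα, the nuclear receptor that responds to fatty acids in liver, whereas Cyp4a12a and Cyp4a12b are known for their higher level in males than in females and for their response to androgen.

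The 6 genes lie within 322557 bases of chromosome 4 (GRCm38). Cyp4a12a (ENSMUSG00000066071.6) spans chr4:115299046-115332815 and Cyp4a12b (ENSMUSG00000078597.2) spans chr4:115411624-115439034. Cyp4a14 (ENSMUSG00000028715.2) follows at chr4:115486200-115496142 and is the only member on the minus strand. Cyp4a10 (ENSMUSG00000066072.13) spans chr4:115518264-115533649, Cyp4a31 (ENSMUSG00000028712.12) chr4:115563649-115579015 and Cyp4a32 (ENSMUSG00000063929.6) chr4:115600969-115621602. The table has 11 Cyp4a entries in all, and the other 5, of which 3 are named as pseudogenes, hold between 0 and 6 counts each over the 16 libraries.

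How well reads can be told apart differs between the members, and the sequences below, read from the GENCODE M21 transcripts of the same build, are shown for that reason. The first set is the coding stretch around the cysteine that holds the haem, 30 bases read 5′ to 3′, with capitals marking bases that differ from Cyp4a10. In every member this stretch is joined from 2 exons.

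Cyp4a10: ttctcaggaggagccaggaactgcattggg

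Cyp4a31: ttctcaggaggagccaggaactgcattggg

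Cyp4a32: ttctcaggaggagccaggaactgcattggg

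Cyp4a12a: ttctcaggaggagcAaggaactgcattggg

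Cyp4a12b: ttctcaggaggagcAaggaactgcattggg

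Cyp4a14: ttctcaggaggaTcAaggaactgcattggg

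Cyp4a10, Cyp4a31 and Cyp4a32 were identical in this stretch, Cyp4a12a and Cyp4a12b differed from them by 1 base, and Cyp4a14 by 2. Over the whole coding sequence Cyp4a12a and Cyp4a12b were 98.5% identical, with 23 mismatches in 1524 bases. Cyp4a10 was 97.2% identical to Cyp4a32 and 96.6% to Cyp4a31, and Cyp4a31 was 96.0% identical to Cyp4a32. Cyp4a14 stood further away, with 75.7% to 76.4% identity to the others.

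The second set gives the 30 coding bases in which each of 3 close pairs differ most, with capitals at the differing bases. These are windows where a read can be given to one gene of the pair. The close pair Cyp4a10 and Cyp4a32 is not among the 3.

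Cyp4a12a at chr4:115326652-115326681: agttgaggacctgaacGatctcGtttttTC

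Cyp4a12b at chr4:115432905-115432934: agttgaggacctgaacAatctcTtttttCT

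Cyp4a10 at chr4:115521087-115521116: GaaTggacagCcatggttccagcacAggaG

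Cyp4a31 at chr4:115566499-115566528: AaaCggacagTcatggttccagcacCggaA

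Cyp4a31 at chr4:115578022-115578051: ctaccagggtCcccATgTccttagcCcgaT

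Cyp4a32 at chr4:115621520-115621549: ctaccagggtTcccGAgCccttagcAcgaA

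Even in its most different window the pair Cyp4a12a and Cyp4a12b had only 4 differing bases, against 5 for Cyp4a10 and Cyp4a31 and 6 for Cyp4a31 and Cyp4a32. Of all stretches of 100 bases, the read length, 100% of those of Cyp4a14 occurred in no other gene's transcript. The share was 91.8% for Cyp4a31, 87.3% for Cyp4a10 and 79.9% for Cyp4a32, and it fell to 64.2% for Cyp4a12a and 63.8% for Cyp4a12b, which share 832 such stretches with each other. By its own sequence, a read from such a shared stretch cannot be told apart between Cyp4a12a and Cyp4a12b. The reads are paired-end, and whether the mate of such a read falls in a distinct stretch was not examined. The sources used here do not say how reads that align to several genes were counted. The values of the 5 members other than Cyp4a14 are therefore uncertain to that extent, and sums over close copies are given beside them.

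Library totals lay between 14245178 and 36069968 counts, with 23032656 for fed liver, 24961373 for fasting liver, 22446554 for fed kidney and 25776551 for fasting kidney. A count of 3, the floor used here, equals 0.0832 to 0.211 CPM, the share of a library's counts scaled to 1000000. The summed CPM of 9 hepatocyte marker genes was 113792 in fed and 111600 in fasting liver and at most 1672 in any other library. That of 9 proximal tubule markers was 37043 in fed and 31419 in fasting kidney and at most 745 elsewhere, so the labelled liver and kidney carried their own markers. Proximal tubule markers were near 0 in liver, with 3.17 and 2.56 CPM in sum and 6 and 5 of the 9 genes at 0 counts. In bulk tissue, fewer cells of a type and less RNA per cell cannot be told apart.

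In liver, 5 of the 6 members were higher in the fasting library and 1, Cyp4a12a, was close to its fed level. A gene counts as called here where log2 of the CPM ratio, with 0.01 added to both values, exceeds 0.5 in size and a two-sided Fisher's exact test on its counts and the library totals gives a p under 0.01. This is the rule of the study, and it compares the libraries. Of 25048 genes with a count in liver, 4.46% were called higher in fasting and 9.52% lower, a background from which nothing is read here, since the members were chosen on this contrast.

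Cyp4a14 held 11310 counts in fed and 205996 in fasting liver, or 491 and 8253 CPM. Cyp4a10 held 7102 and 105194 counts, or 308 and 4214 CPM. These were the most abundant members of the liver under both conditions, and their log2 fold changes were 4.07 (95% counting interval 4.04 to 4.10) and 3.77 (3.74 to 3.81). Among the 8524 genes that reached 10 CPM in a liver library, Cyp4a14 was the 13th and Cyp4a10 the 17th by log2 fold change. Cyp4a31 was far lower in level, with 94 and 1607 counts, or 4.08 and 64.4 CPM, and a log2 fold change of 3.98 (3.68 to 4.30). As counted, the 3 genes thus had similar fold changes from very different levels. Of the read-length stretches of Cyp4a31, 108 are shared with Cyp4a10, which had 105194 counts in fasting liver against 1607 for Cyp4a31. The part of such reads in the Cyp4a31 values was not tested.

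Cyp4a32 went from 677 to 3363 counts in liver, or from 29.4 to 135 CPM, a log2 fold change of 2.196 (2.08 to 2.32) and the 53rd place. Of its read-length stretches, 197 are shared with the far more abundant Cyp4a10. The part of such reads in the liver values of Cyp4a32 was not tested. Cyp4a12b went from 1340 to 2534 counts, or from 58.2 to 102 CPM, a log2 fold change of 0.80 (0.71 to 0.90) and the 352nd place. Cyp4a12a had 4972 counts in fed and 4521 in fasting liver, or 216 and 181 CPM. Its log2 fold change of -0.25 (-0.31 to -0.19) was below the size needed for a call, beside a median of -0.11 over all liver genes with a count. Since Cyp4a12a and Cyp4a12b share so much sequence, their sum is less open to exchange of reads. It was 6312 counts in fed and 7055 in fasting liver, or 274 and 283 CPM, a log2 fold change of 0.04 (-0.005 to 0.09). The pair together was thus at nearly the same level in both libraries, with fewer counts assigned to Cyp4a12a and more to Cyp4a12b in the fasting one. The part of shared reads in this was not tested. The sum of Cyp4a10, Cyp4a31 and Cyp4a32 went from 342 to 4413 CPM, a log2 fold change of 3.69.

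**Figure D1:**
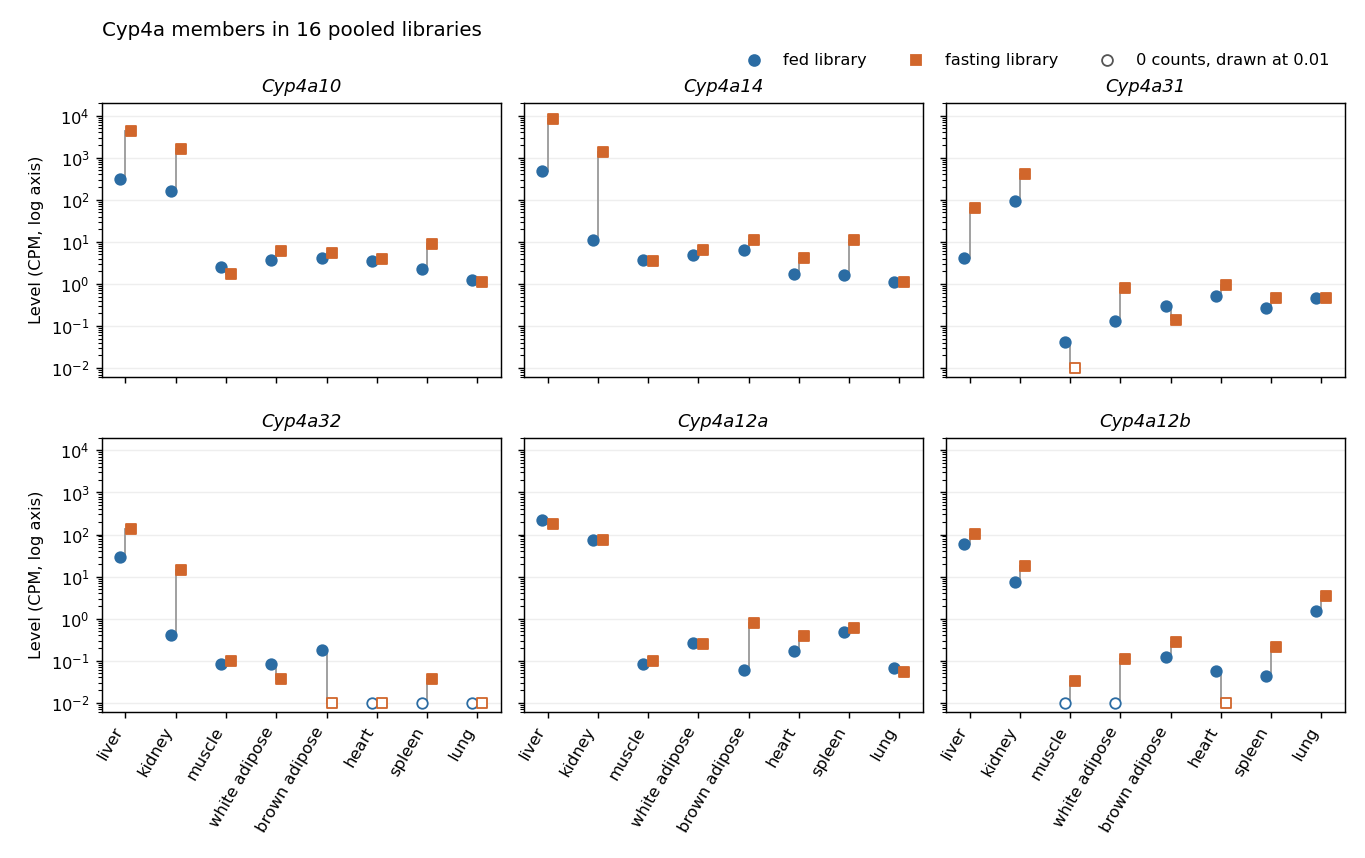
Level of each member in CPM (log axis) in the 8 tissues, with 1 fed library (circle) and 1 fasting library (square) per tissue and open symbols at 0.01 for 0 counts. The fasting symbols of Cyp4a14 stand at 8253 CPM in liver and 1354 CPM in kidney, whereas no member passed 11.2 CPM in the other 6 tissues.

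In kidney, the same 5 genes were higher in the fasting library, and Cyp4a12a was again not called. Of 27888 kidney genes with a count, 2.77% were called higher in fasting and 3.93% lower. Between the fed and fasting kidney libraries, 8 of 9 proximal tubule markers were lower (37043 and 31419 CPM in sum). So were 3 of 3 markers of the distal tubule and collecting duct (1271 and 991 CPM). The 2 thick ascending limb markers were higher (6014 and 7257 CPM in sum), as were 2 brown adipocyte markers (1.51 and 7.02 CPM in sum). Of 9 hepatocyte markers 7 were lower (Alb at 32.2 and 7.57 CPM). The hepatocyte marker sum was nevertheless higher, at 1279 and 1672 CPM, with Apob at 1106 and 1561 CPM. The part of these markers in the kidney values was not tested. Cyp4a14 went from 244 to 34891 counts, or from 10.9 to 1354 CPM. With a log2 fold change of 6.96 (6.78 to 7.15) it held the 2nd place among 10239 kidney genes that reached 10 CPM. Cyp4a10 was the most abundant member of the kidney under both conditions, with 3667 and 41580 counts, or 163 and 1613 CPM, a log2 fold change of 3.30 (3.25 to 3.35) and the 9th place.

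Cyp4a31 was the only member with a higher CPM in kidney than in liver. It held 2135 counts in fed and 10613 in fasting kidney, or 95.1 and 412 CPM, a log2 fold change of 2.11 (2.05 to 2.18) and the 19th place. Cyp4a32 was scarce in fed kidney, with 9 counts (0.401 CPM), and reached 372 counts (14.4 CPM) in fasting kidney. Its log2 fold change of 5.14 (4.23 to 6.31) rests on those 9 counts, and with 1 CPM added in place of 0.01 it was 3.46. Of the 100-base stretches of Cyp4a32, 197 are shared with Cyp4a10, which had 41580 counts in the same library, and the part of such reads in the Cyp4a32 count was not tested.

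Cyp4a12b went from 163 to 470 counts in kidney, or from 7.26 to 18.2 CPM, a log2 fold change of 1.33 (1.07 to 1.59). Cyp4a12a held 1690 and 1907 counts, or 75.3 and 74.0 CPM, a log2 fold change of -0.03 (-0.12 to 0.07) beside a median of -0.07 over all kidney genes with a count. Its value changed sign, to 0.05, when the libraries were scaled by TMM factors, so no direction is given for it. The sum of Cyp4a12a and Cyp4a12b was 82.6 CPM in fed and 92.2 CPM in fasting kidney, a log2 fold change of 0.16 (0.07 to 0.25). The sum of Cyp4a10, Cyp4a31 and Cyp4a32 went from 259 to 2039 CPM, a log2 fold change of 2.98.

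**Figure D2:**
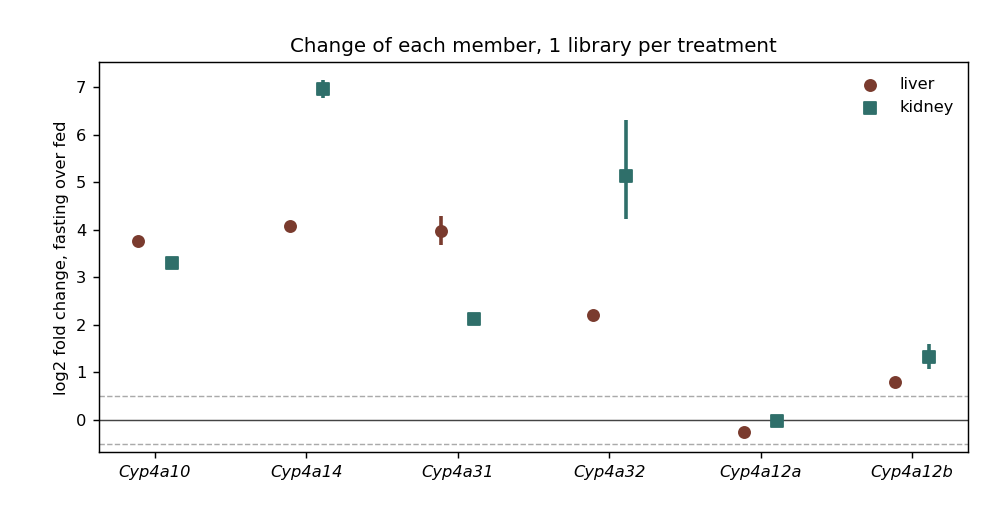
Log2 fold change of each member, fasting over fed, in liver (circles) and kidney (squares), with 95% counting intervals as vertical lines (hidden where smaller than the symbol) and dashed lines at 0.5 and -0.5. Cyp4a14 and Cyp4a32 lie higher in kidney (6.96 and 5.14) than in liver (4.07 and 2.196), Cyp4a31 lies lower (2.11 against 3.98), and both values of Cyp4a12a lie between the dashed lines.

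These intervals cover the error of counting alone and say nothing of the variation between mice.

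The size of the change differed between liver and kidney from member to member. On the log2 scale the kidney change exceeded the liver change by 2.94 for Cyp4a32 and by 2.89 for Cyp4a14. For Cyp4a31 the difference, kidney minus liver, was -1.86 and for Cyp4a10 it was -0.47, while for Cyp4a12b it was 0.52 and for Cyp4a12a 0.23. With 1 library per tissue and treatment these differences could not be tested against the spread between animals. The contrast between liver and kidney in the fasting libraries was smaller for 5 members and larger for Cyp4a10. The CPM of Cyp4a14 was 45.2 times that of kidney in fed liver and 6.10 times in fasting liver. For Cyp4a32 the ratio went from 73.3 to 9.34, and for Cyp4a31, which is higher in kidney, the ratio of kidney over liver went from 23.3 to 6.40. The ratio of liver over kidney went from 1.89 to 2.61 for Cyp4a10, from 2.87 to 2.45 for Cyp4a12a and from 8.01 to 5.57 for Cyp4a12b.

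The members changed places in the family. In fed liver Cyp4a14 made up 44.4% of the 25495 counts of the 6 genes, Cyp4a10 27.9%, Cyp4a12a 19.5%, Cyp4a12b 5.26%, Cyp4a32 2.66% and Cyp4a31 0.369%. In fasting liver, with 323215 counts, Cyp4a14 made up 63.7% and Cyp4a10 32.5%, and each of the other 4 at most 1.40%. In fed kidney the 7908 counts fell mainly to Cyp4a10 (46.4%), Cyp4a31 (27.0%) and Cyp4a12a (21.4%), and Cyp4a14 had 3.09%. In fasting kidney, with 89833 counts, Cyp4a10 kept 46.3%, Cyp4a14 held 38.8%, Cyp4a31 11.8% and Cyp4a12a 2.12%. Cyp4a14 thus gained share in both tissues, Cyp4a12a lost share in both, and the share of Cyp4a10 in kidney stayed nearly the same.

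The whole family took 0.111% of all counts in fed and 1.29% in fasting liver, and 0.0352% in fed and 0.349% in fasting kidney. Its summed level went from 1107 to 12949 CPM in liver and from 352 to 3485 CPM in kidney, log2 fold changes of 3.55 and 3.31. Levels of different members can be compared only per length. Per kilobase of exon, fed liver had 189 CPM of Cyp4a14, 146 of Cyp4a10, 89.1 of Cyp4a12a, 24.3 of Cyp4a12b, 19.1 of Cyp4a32 and 1.63 of Cyp4a31. In fasting liver the order was Cyp4a14 (3173), Cyp4a10 (1998), Cyp4a32 (87.7), Cyp4a12a (74.8), Cyp4a12b (42.4) and Cyp4a31 (25.7). In fed kidney it was Cyp4a10 (77.5), Cyp4a31 (37.9), Cyp4a12a (31.1), Cyp4a14 (4.18), Cyp4a12b (3.03) and Cyp4a32 (0.261). In fasting kidney it was Cyp4a10 (765), Cyp4a14 (520), Cyp4a31 (164), Cyp4a12a (30.5), Cyp4a32 (9.40) and Cyp4a12b (7.61). Cyp4a14 moved from the 4th to the 2nd place in kidney, and Cyp4a32 from the 5th to the 3rd in liver. With 1 library each, it could not be determined which neighbours in these orders differ beyond the spread between mice. The transcript model of Cyp4a32 ends with its stop codon, with a coding sequence of 1527 bases in a transcript of 1530, so its counts cover coding sequence only.

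Outside liver and kidney, every member was at 11.2 CPM or less. Cyp4a10 lay between 1.11 and 8.73 CPM (median 3.66) and Cyp4a14 between 1.08 and 11.2 CPM (median 3.93) over the other 12 libraries. Cyp4a31 held 0 to 22 counts and Cyp4a32 0 to 3 counts, which is at or under the floor in all 12, with 6 of them at 0. Cyp4a12a held 1 to 17 counts, and Cyp4a12b 0 to 6 counts except in lung.

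Of the other tissues, the spleen had the largest log2 fold change of the family sum (2.18). Cyp4a14 held 37 counts in fed and 311 in fasting spleen, or 1.63 and 11.2 CPM, a log2 fold change of 2.77. Cyp4a10 held 51 and 243 counts, or 2.25 and 8.73 CPM, a log2 fold change of 1.95. Thus 2 of 6 members were called higher in fasting spleen, where 2.31% of genes were. All 9 hepatocyte markers were present in spleen at low level, with a sum of 162 CPM in the fed and 143 CPM in the fasting library. Pancreatic acinar markers differed strongly between the spleen libraries, at 618 CPM in fed and 11.9 CPM in fasting spleen, and 3 erythroid markers in sum were at 2949.9 and 7025 CPM. Their part in the values of the members was not tested.

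Since hepatocyte markers appeared at low level in every library, the members were also set against the count of Alb, the albumin gene. In liver, Cyp4a14 amounted to 0.770% of the Alb count under fed and 15.8% under fasting conditions, and Cyp4a10 to 0.484% and 8.08%. In spleen the values were 1.81% and 17.0% for Cyp4a14 and 2.50% and 13.3% for Cyp4a10. The fasting value in spleen was thus near that of liver for Cyp4a14 and higher than it for Cyp4a10. In fed muscle Cyp4a14 amounted to 6.20% of Alb, in white adipose to 6.85% and in brown adipose to 6.13%, and in the fasting libraries of the same tissues to 7.91%, 9.56% and 9.12%. In heart it was 12.4% and 8.03%, and in lung, where Alb had few counts, 14.4% and 92.9%. Cyp4a10 lay between 3.95% of Alb (fasting muscle) and 25.3% (fed heart) in these tissues other than lung, where it was 16.6% and 95.2%. These fed values were above that of fed liver. How much of the low level of Cyp4a10 and Cyp4a14 in these tissues came with RNA from hepatocytes was not tested.

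**Figure D3:**
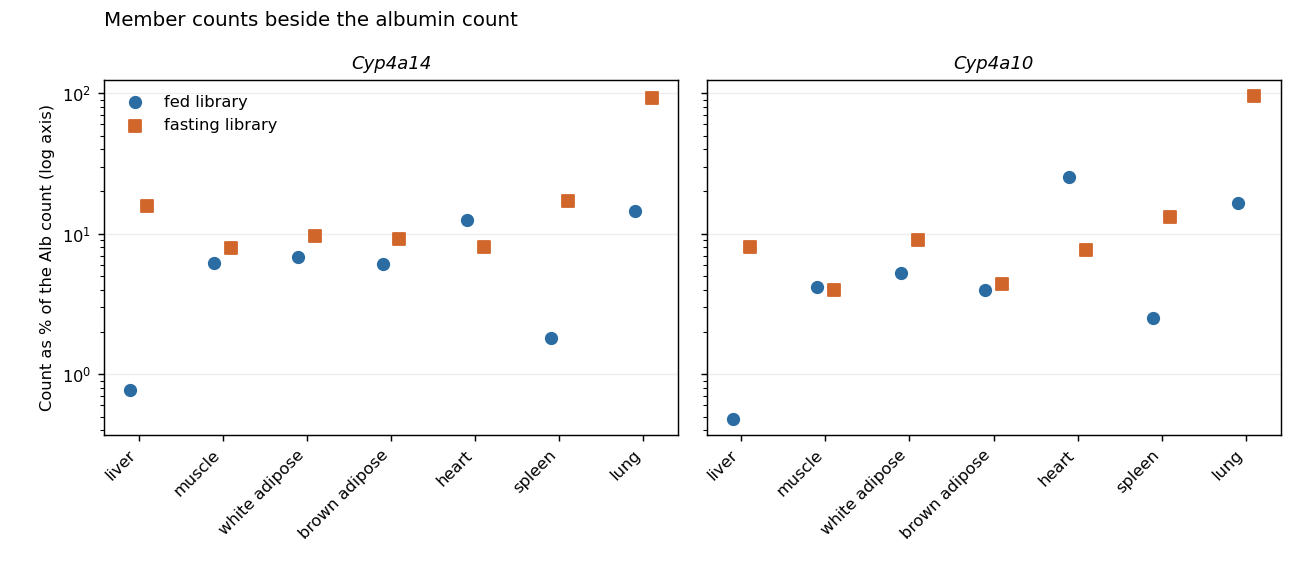
Counts of Cyp4a14 and Cyp4a10 as a percentage of the Alb count (log axis) in fed (circles) and fasting (squares) libraries of 7 tissues, kidney left out. In liver and spleen the fasting values of Cyp4a14 (15.8% and 17.0%) lie well above the fed ones (0.770% and 1.81%), and in muscle both lie together (6.20% and 7.91%).

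In white adipose, Cyp4a10 went from 88 to 167 counts (3.78 and 6.09 CPM, log2 fold change 0.69) and Cyp4a31 from 3 to 22 counts (0.129 and 0.802 CPM, 2.55). These were the 2 of 6 members called there, where 13.2% of genes were called higher. Cyp4a14 went from 115 to 178 counts, a log2 fold change of 0.39 that was not called. The fed count of Cyp4a31 is at the floor. Proximal tubule markers also differed between the white adipose libraries, at 69.0 and 745 CPM in sum, of which Lrp2 accounted for 34.9 and 710 CPM, whereas Kap was at 20.4 and 18.2 CPM. Their part in the Cyp4a31 value was not tested.

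In brown adipose, Cyp4a14 held 107 and 160 counts (6.44 and 11.2 CPM, log2 fold change 0.80) and Cyp4a12a 1 and 11 counts, and these 2 of 6 were called higher against 5.39% of genes. The fed count of Cyp4a12a is below the floor of 3, and the counting interval of its log2 fold change runs from 0.90 to 9.11. Cyp4a10 had 70 and 77 counts there, with a log2 fold change of 0.36. Fast skeletal muscle markers were at 1907 CPM in fed and 910 CPM in fasting brown adipose, and lung epithelium markers at 47.9 and 67.7 CPM. The part of these markers in the brown adipose values was not tested. In heart, only Cyp4a14 of the 6 was called, with 30 and 63 counts (1.74 and 4.13 CPM, log2 fold change 1.24), where 4.33% of genes were. The hepatocyte marker sum of the heart libraries was 28.3 CPM in fed and 109 CPM in fasting, and their part in the Cyp4a14 value was not tested. Cyp4a10 had 61 and 60 counts in heart, a log2 fold change of 0.15.

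In lung, only Cyp4a12b was called, with 45 counts in fed and 123 in fasting (1.497 and 3.41 CPM, log2 fold change 1.18), where 2.68% of genes were called higher. Cyp4a12a had 2 counts in each lung library, so nearly all lung reads of the pair were assigned to Cyp4a12b, unlike in liver and kidney, where Cyp4a12a had the larger count of the pair. Cyp4a12b amounted to 19.7% of the Alb count in fed and 293% in fasting lung, where Alb had 229 and 42 counts, and to 6.72% and 24.9% of the summed hepatocyte markers, and the hepatocyte marker sum of lung went from 22.3 to 13.7 CPM. Cyp4a10 had 38 and 40 counts in lung and Cyp4a14 33 and 39. Between the fed and fasting lung libraries, B cell markers were at 114 and 55.1 CPM in sum and cardiomyocyte markers at 745 and 456 CPM. Adipocyte markers went the other way, at 96.9 and 155 CPM. The part of these markers in the lung values was not tested. In muscle none of the 6 members was called, where 4.42% of genes were called higher and 9.39% lower. Cyp4a10 had 61 and 54 counts in muscle and Cyp4a14 90 and 108.

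The other genes of the route were followed in lists of genes known for these roles, drawn up with earlier results of these data known, and they are described by the same call rule. Among the other Cyp4 genes, none of the 9 with a count in liver was called higher. Cyp4f14, an omega-hydroxylase of the Cyp4f family, was called lower, from 238 to 49.6 CPM (log2 fold change -2.26), whereas Cyp4f15 was at 140 and 184 CPM (0.40) and Cyp4v3 at 477 and 368 CPM (-0.37). In kidney none of 11 was called in either direction, and Cyp4b1, the most abundant of them, was at 3882 and 3207 CPM (-0.28). The medians of the other Cyp4 genes were 0.21 in liver and 0.10 in kidney.

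Cytochrome P450 enzymes need electrons, which Por, the P450 oxidoreductase, and cytochrome b5 supply. Of 4 electron donor genes in liver, Por was called higher, from 128 to 719 CPM (2.49). Cyb5b, the mitochondrial cytochrome b5, was called lower, from 768 to 184 CPM (-2.07), and so was Cyb5r3, a cytochrome b5 reductase, from 370 to 155 CPM (-1.26), while Cyb5a was at 697 and 757 CPM (0.12). The median of the 4 was -0.57. In kidney none of the 4 was called (median -0.20), and Por was at 302 and 289 CPM (-0.07), beside a log2 fold change of the Cyp4a sum close to that of liver.

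Of 24 genes that oxidise omega-hydroxy and dicarboxylic fatty acids, 14 were called higher and 2 lower in liver, with a median log2 fold change of 0.68, against -0.11 over all genes. Ehhadh, the peroxisomal bifunctional enzyme, went from 445 to 2658 CPM (2.58), Acot3, a peroxisomal thioesterase, from 1.95 to 37.7 CPM (4.26) and Acot4, a thioesterase of dicarboxylic acyl-CoA, from 27.7 to 97.0 CPM (1.81). Among the most abundant of the list were Slc27a2 (1.19) and Scp2 (0.13, not called). The alcohol dehydrogenase genes Adh1 and Adh4 were the 2 called lower (-0.65 and -1.59). In kidney 12 were called higher and 1 lower, with a median of 0.58. Ehhadh went from 768 to 2645 CPM (1.78), Acaa1b from 172 to 704 CPM (2.03) and Acot3 from 8.15 to 52.6 CPM (2.69).

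The PPARα target list, which holds 29 genes without the Cyp4a members and shares 3 genes with the list before, had 23 called higher and 0 lower in liver (median 1.09). In kidney 26 were called higher and 0 lower (median 1.61). Fgf21, a fasting hormone of the liver, showed the largest change of the list in liver (5.19). Acot1 and Acot2, close copies encoding thioesterases, had log2 fold changes of 2.84 and 3.10. In kidney Pdk4 (4.19) and Angptl4 (3.38) were among the genes with the largest change. Fabp1, the liver fatty acid binding protein, was at -0.49 in liver and was not called. In the other 6 tissues between 10 (brown adipose) and 16 (heart) of the list were called higher, and none of the list was called lower in any tissue.

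The PPARα targets were also read from a fit with repeats, in which the 8 tissues of the same 2 pools served as repeats of the contrast. In edgeR's quasi-likelihood fit with tissue as a block, 17296 genes were tested, of which 400 (2.31%) were called higher and 359 (2.08%) lower with p-values adjusted after Benjamini and Hochberg (limit 0.05). Of the 28 listed genes tested, 13 were called higher and 0 lower, and the median log2 fold change was 0.78 against -0.01 over all genes. The called genes include Pdk4 (3.05, adjusted p 9.43e-03 in edgeR, higher in 8 of 8 tissues) and Acot1 (2.85, adjusted p 2.41e-03, 8 of 8). Since the tissues share pools, these p-values weigh a change against its spread between tissues, not between mice. The count fell to 6 when muscle was left out, to 7 without heart or without lung and to 8 without brown adipose, kidney or liver. The Cyp4a members are not reported from this fit, since they were chosen on the same contrast.

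**Figure D4:**
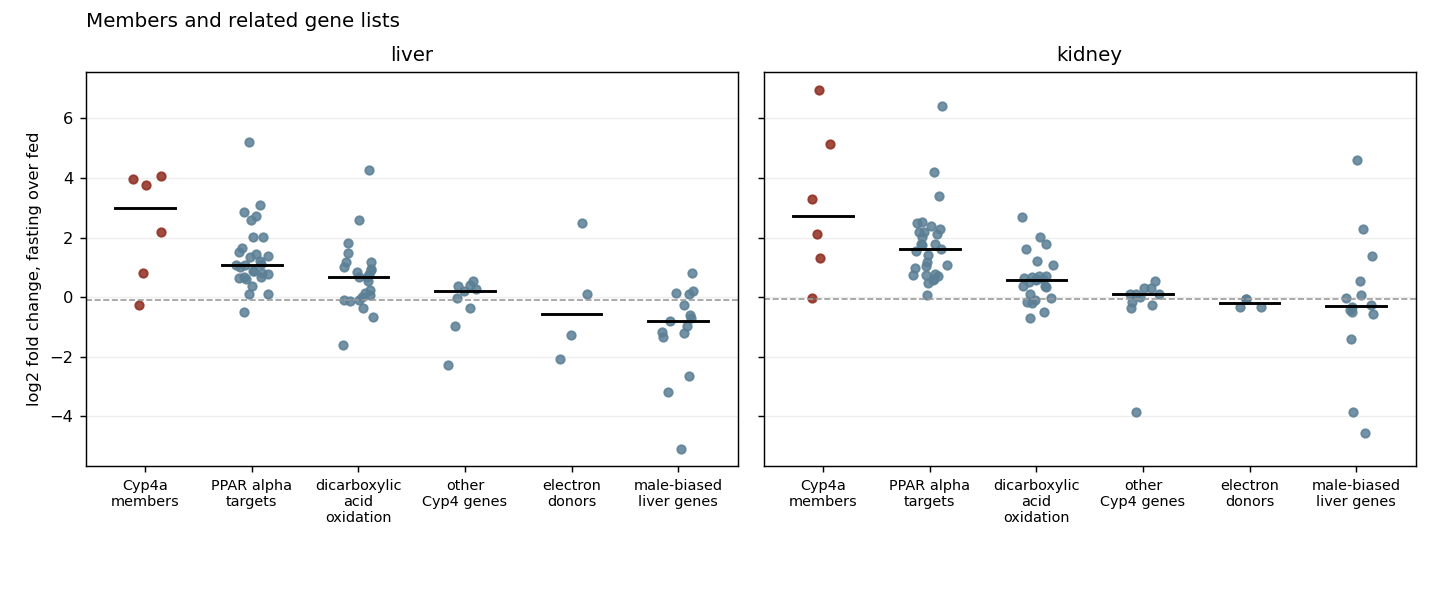
Log2 fold change, fasting over fed, of the 6 members and of the genes with a count in 5 lists, in liver and kidney, with horizontal bars at list medians and a dashed line at the median of all genes with a count. The PPARα targets (medians 1.09 and 1.61) lie mostly above the dashed line in both tissues, and the male-biased liver genes (-0.81 and -0.30) lie mostly below it in liver and on both sides of it in kidney, where low-count genes spread widely.

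The receptor and its partners were followed as well. In liver, Ppara went from 145 to 275 CPM (0.92) and Ppargc1a, a coactivator, from 14.8 to 34.3 CPM (1.21), whereas Pparg (-0.69) and Rxrg (-0.75) were called lower, the latter at 5.21 and 3.08 CPM, below the level set for naming, and named here after its value was seen, and Rxra, the partner of PPARα, was at 492 and 588 CPM (0.26). In kidney, Ppara was called higher, from 86.9 to 131 CPM (0.59), and Ppard was called lower, from 34.3 to 9.08 CPM (-1.92). The other 8 of 12 genes in liver and 10 of 12 in kidney were not called, with medians of 0.01 in both tissues.

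Genes known for a male bias in liver were mostly lower. Of 15 such genes, 10 were called lower, 1 higher and 4 neither in liver, with a median of -0.81. Hsd3b5, a steroid dehydrogenase, went from 290 to 8.57 CPM (-5.08), Selenbp2 from 910 to 101 CPM (-3.18) and Keg1 from 260 to 41.9 CPM (-2.64). Cyp2d9 was the 1 called higher, from 1010.5 to 1768 CPM (0.81). Cyp4a12a, at -0.25, and Cyp4a12b, at 0.80, thus lay above the median of these genes in liver. In kidney, 2 of 14 of the same genes were called higher and 2 lower (median -0.30).

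Of the genes of the growth hormone and androgen axis in liver, 8 of 12 were called lower and 1 higher (median -0.62). Cish, a feedback inhibitor of growth hormone signalling, went from 47.3 to 6.89 CPM (-2.78) and Ghr, its receptor, from 769 to 337 CPM (-1.19), while Bcl6, a repressor, went from 14.8 to 35.5 CPM (1.26). In kidney 3 of 12 were called lower, Cish among them (-0.94), and 2 higher (median -0.13). Of 10 androgen-responsive kidney genes, 4 were called lower and 0 higher in kidney (median -0.36). Odc1, of polyamine synthesis, went from 1180.5 to 316 CPM (-1.90), and Cyp2j13 had a log2 fold change of -1.13, whereas Kap, the most abundant of them, was not called (-0.14). In liver 2 of 7 of these were called higher and 2 lower (median 0.21). Beside these, Cyp4a12a in kidney was at 75.3 and 74.0 CPM.

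Other enzymes that hydroxylate or epoxidise arachidonic acid, or act on its epoxides, were called in both directions. Of 7 in liver, 2 were called higher and 4 lower (median -0.58), among them Ephx2, the soluble epoxide hydrolase, from 853 to 1905 CPM (1.16), Cyp2e1 (0.64), Cyp2u1 (-1.35) and Cyp2j5 (-0.63). In kidney none of 7 was called in either direction (median 0.07).

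The genes whose pattern over the 16 libraries was most like that of each member were taken by Pearson correlation of log2(CPM + 1) over 14907 genes that reached 10 CPM in a library. The other 5 members were left out of each comparison. The libraries share pools and tissues, so these values are descriptions. For Cyp4a10 they were Crot (r = 0.970), a peroxisomal carnitine acyltransferase, then Cyp2d9, Acot12, Dmgdh and Hgd (0.962 or more). For Cyp4a14 they were Etnppl (0.939), Hpd, Gm9826, Cyp2d9 and Apoa4 (0.923 or more). For Cyp4a31, the kidney-rich member, Acnat2 (0.984) and Them7 (0.967) came first, followed by Gm19950, Gm15638 and Nat8. Outside the group, Cyp4a32 was most like Gm11789 (0.961) and Etnppl (0.948). Cyp4a12a was closely matched by Apom and Prodh2 (both 0.998), which are high in liver and kidney, and Cyp4a12b by Azgp1 (0.984). Between members, r lay between 0.68 for Cyp4a31 with Cyp4a32 and 0.96 for Cyp4a14 with Cyp4a32. These neighbours depended on the measure: with Spearman's rho in place of Pearson's r, Cyp4a14 kept 4 of its 5 genes, Cyp4a10 and Cyp4a12a 1 each, and the other 3 members none.

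Of the members, Cyp4a32 has an entry in the table of RefSeq promoters used here (GRCm38.p6, 250 bases before to 50 after the start, chr4:115600688-115600987). The letters AGGTCA, the hexamer bound by many nuclear receptors, were not found in it on either strand, nor was AGGTCANAGGTCA, the repeat bound by PPARα with its partner, which contains the hexamer. Of 32851 promoters of the same length, 16.3% hold the hexamer on either strand and 0.0396% the repeat, and nothing about the receptor is drawn from this window.

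Acinar markers of the pancreas were higher in the fasting liver library, at 121 and 275 CPM in sum with 11 of 12 genes higher, and their part in the liver values was not tested. The sum of hepatocyte markers in liver moved from 113792 to 111600 CPM, and the summed Cyp4a level from 1107 to 12949 CPM.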

How the data were processed

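The authors made strand-specific libraries and sequenced them as paired-end reads of 100 bases, trimmed with fastp 0.23.2, checked with FastQC 0.11.8, aligned with HISAT2 2.2.1.0 (build GRCm38), and the aligned reads were assigned to genes by featureCounts (Subread 2.0). They deposited raw counts per gene and library, and a gene length (an other value) per the file headers. The strand and multi-mapping settings are not given in the sources used here. Symbols were matched by identifier to GENCODE M21 of the same build (55144 of 55385 genes).

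CPM was computed from library totals. Fold changes are on the log2(CPM + 0.01) scale, with 95% exact (Clopper-Pearson) counting intervals. Genes were called at a log2 fold change over 0.5 and a Fisher p under 0.01. edgeR 4.0.16 (quasi-likelihood, TMM, filterByExpr, tissue block, 7 residual degrees of freedom) was fitted to all 16 libraries, and DESeq2 1.42.0 was an alternative. Precision is limited by 1 pooled library per group, and intervals and floors (3 counts) cover counting error only. The calls were tested on simulated data. Fisher's test recovered 200 of 200 genes changed 4-fold in liver with 72 false calls among 23881 genes. That simulation held counting error alone, so it says nothing of false calls from variation between mice. The edgeR fit recovered 200 of 200 genes changed 2-fold with 7 false calls among 17389 genes. Its simulated libraries were independent and had the same change in every tissue, unlike the real ones, which share pools of mice.

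All 6 members were named, and of each list, among genes at 10 CPM or more in liver or kidney, at most the 3 highest, the 3 most changed and any that moved against the list's median by over 0.5, from which the text takes examples, beside 1 exception that it marks. For each member the 5 most alike genes were taken. The members and gene lists were chosen with earlier results of these data known. Other scalings, pseudocounts, thresholds and left-out tissues were tried as alternatives. Some genes of the lists are counted but not reported here by name.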

Additional observations from a re-analysis of the deposited data

Results flagged for a closer look

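The log2 fold change of Cyp4a12a between fasting and fed conditions went opposite ways in liver (-0.25) and brown adipose (3.48), a difference of 3.73 between both tissues. It came up because the value of each tissue has another sign, and the difference was not tested. The brown adipose value rests on 1 fed count and 11 fasting counts, with a 95% counting interval of 0.90 to 9.11, so the difference is sized only roughly, and the liver value, from 4972 and 4521 counts, was not past the limit for a call.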

How the results depend on the processing

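Of 150 values under alternatives 100 stayed within their limits, 50 moved and 0 reversed among called values. The limit was the counting interval for a fold change and a fixed ratio to the main value for a count of genes. By that ratio, 4 members in place of 5 in liver counted as within the limit. Values relative to hepatocyte markers were marked as moved without a limit, and a reversal could be marked only for fold changes. The tally thus mixes unlike limits. With edgeR's exact test at an assumed coefficient of variation of 0.4, the members called were 3 in liver (0.391% of all genes higher under the same rule), 3 in kidney (0.0861%), 1 in spleen (0.0409%) and 0 in white adipose (3.8%), brown adipose (0.205%), heart (0.146%) and lung (0.129%), and nothing is read from these counts, since the members were chosen on this contrast. Under the exact test Cyp4a32 and Cyp4a12b in liver, Cyp4a31 and Cyp4a12b in kidney and Cyp4a10 in spleen were no longer called. With a log2 fold change above 1 the members called in liver were 4 in place of 5, without Cyp4a12b (2.24% of all genes higher). With that limit 1 member was called in white adipose (8.79%) and 1 in brown adipose (2.12%), and likewise with only genes at 1 CPM or more (19.8% and 8.68%). TMM factors raised all liver values by 0.124 and moved the median of all liver genes by 0.118 (white adipose by -0.106). The summed family (3.55 in liver, 3.31 in kidney) became 3.67 and 3.38 with TMM factors, 3.67 and 3.36 with DESeq2 size factors, and 3.93 and 3.65 without Cyp4a12a and Cyp4a12b. Cyp4a12a in liver lay between -0.25 and -0.13 over its alternatives and in kidney between -0.03 and 0.05. Of the PPARα targets, 13 were called in the fit across tissues, 17 with DESeq2, 14 with no filter on low counts, 0 with no tissue block (where edgeR called 1 of all 17296 genes), and 6 to 11 with 1 tissue left out, where by construction the fit has fewer samples. No pairing by replicate number could be made with 1 library per tissue and treatment, and the tissue block is what sets fed beside fasting within each tissue. Calls of members at or under 3 counts are limited by depth.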
